A study of Rattus norvegicus with 20 samples.

Results

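Erythroid transcripts were described in rat liver after short dosing with tricresyl phosphate. They comprised the β-globin gene Hbb, the α-globin gene Hba-a3, the erythroid heme enzyme Alas2, the α-globin chaperone Ahsp, the red cell anion exchanger Slc4a1 and Tent5c (also written Fam46c). Members were every array probe set annotated to these 6 genes and every probe set naming several globin genes, the _a_at probe set of Hbbl1 and Hbb-bs among them. The rule took 13 of the 31042 probe sets tested, of which 7 named 1 member gene and 6 named several globin genes. The genes had been picked because they were lower at the highest dose in these data, so every difference from control below is a description, and no p-value is given for it.

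Liver RNA of 20 male Harlan Sprague Dawley rats was measured on 1-colour Affymetrix arrays, 1 array per rat. Tricresyl phosphate (TCP) is an aryl ester of phosphoric acid found in plastics, hydraulic fluids and engine oils. All rats received corn oil by oral gavage on 4 consecutive days: alone in the control group (n = 5), or with TCP at 62.3, 124.5, 248.6, 497.3 or 994.6 mg/kg body weight (n = 3 rats each). Each array is a different rat per the labels, so the p-values measure the spread between rats, and the number of arrays limits the precision.

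In adult rats, red cells form mainly in the bone marrow and spleen. Late erythroblasts and the reticulocytes that leave the marrow still carry globin mRNA, and they lose it as they mature, so a piece of liver holds erythroid RNA through the blood it contains and any erythroid cells lodged in it. Hemoglobin pairs α-like with β-like chains around heme, and Alas2 starts heme synthesis in erythroid cells, whereas its relative Alas1 starts it in hepatocytes and other cells. In bulk liver RNA, fewer cells of a type and less RNA per cell cannot be told apart.

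The sequences before the transcription starts are shown for Hbb, Hba-a3 and Alas2, whose mean level is used below, and for Hba-a2, a main adult α-globin gene measured only by probe sets shared with Hba-a1, to set the letters of known erythroid promoter motifs beside genes whose levels moved together. They are RefSeq sequences of build GRCr8, 250 bases up to the base before the annotated start, read on the gene's own strand. Of 11 genes looked up, 8 had an entry, and Ahsp, Slc4a1 and Tent5c are named only. Hbb lies at chr1:167663722-167663971 and Hba-a2 at chr10:15829139-15829388, Hba-a3 lies at chr10:15816944-15817193, all on the minus strand, and Alas2 lies at chrX:22895200-22895449 on the plus strand. Capitals mark matches, on either strand, to the GATA-type motifs AGATAA and TGATAA, to CCACACCC, bound by Klf1-type factors, and to CCAAT.
Hbb: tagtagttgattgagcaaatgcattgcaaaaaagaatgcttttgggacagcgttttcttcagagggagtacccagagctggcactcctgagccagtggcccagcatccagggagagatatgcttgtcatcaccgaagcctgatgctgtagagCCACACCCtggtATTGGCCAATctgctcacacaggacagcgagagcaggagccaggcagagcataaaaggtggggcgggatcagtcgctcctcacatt
Hba-a2: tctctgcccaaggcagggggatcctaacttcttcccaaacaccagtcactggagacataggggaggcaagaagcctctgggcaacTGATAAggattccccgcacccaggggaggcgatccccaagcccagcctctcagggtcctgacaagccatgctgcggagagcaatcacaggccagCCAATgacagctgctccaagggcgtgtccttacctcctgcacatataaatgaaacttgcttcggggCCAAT
Hba-a3: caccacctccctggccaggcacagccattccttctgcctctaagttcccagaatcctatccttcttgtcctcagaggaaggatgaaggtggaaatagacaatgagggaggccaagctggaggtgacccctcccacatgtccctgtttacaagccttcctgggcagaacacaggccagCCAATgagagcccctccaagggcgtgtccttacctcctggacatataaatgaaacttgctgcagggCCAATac
Alas2: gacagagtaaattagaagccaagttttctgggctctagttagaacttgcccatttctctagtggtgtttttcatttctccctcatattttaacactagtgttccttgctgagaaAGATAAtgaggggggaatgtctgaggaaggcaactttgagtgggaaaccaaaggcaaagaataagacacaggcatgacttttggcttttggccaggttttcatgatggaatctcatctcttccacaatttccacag
Hbb held CCACACCC with its first base 98 bases before the start, and next to each other an inverted CCAAT at 86 and a CCAAT at 81, while Hba-a2 held TGATAA at 165 and CCAAT at 71 and 5. Hba-a3 held CCAAT at 73 and 7, and Alas2 held AGATAA at 136. Of the 4 entries not printed, Hbb-bs held CCAAT at 76 and Hbbl1 at 79, Hba-a1 held TGATAA at 165, CCAAT at 71 and an inverted CCAAT at 203, and Hbq1b held none of the motifs. Hba-a1 and Hba-a2, which share 3 probe sets, were identical at 241 of these 250 bases. Over all 33469 promoters of this length, 10.3% held AGATAA, 7.97% TGATAA, 2.84% CCACACCC and 34.0% CCAAT. These matches are letters in a window and not measured binding.

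Replicate 1 of 994.6 mg/kg stood apart from the other arrays. On the first principal component of all probe sets, with 18.1% of the variance, its score was 42.7, while the scores of the remaining 19 arrays ran from -18.9 to 20.4. In 11 of the 13 member probe sets it was lower than all other 19 arrays, the exceptions being Ahsp and the Slc4a1 probe set with the higher mean level. Differences between 994.6 mg/kg and control are therefore given with all arrays and without it. RNA quality also moved with dose: the 3′ minus 5′ difference of the GAPDH control transcript, on the log2 scale, was 0.612 to 1.11 in 14 of the 15 treated arrays, against 1.13 to 1.56 in control arrays, and was 2.58 in replicate 2 of 124.5 mg/kg. The part of this difference in the comparisons with control was not tested beyond the fit with it as a covariate.

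The adult globin transcripts averaged lower at each dose than in control livers. All values below are log2 expression levels per array. Hbb, the β-globin chain, was at 13.18, 13.26, 13.21, 13.33 and 13.37 in control, 13.14, 12.93 and 13.14 at 62.3 mg/kg, 12.70, 12.99 and 12.83 at 124.5 mg/kg, 12.70, 12.67 and 12.32 at 248.6 mg/kg, 12.59, 12.49 and 12.86 at 497.3 mg/kg, and 10.66, 12.43 and 12.10 at 994.6 mg/kg. Every treated array lay below every control array, and replicate 1 of 994.6 mg/kg lay far below its group mates. The group means stepped down to 248.6 mg/kg, where Hbb averaged 12.56 ± 0.21 (SD, n = 3), and 497.3 mg/kg, at 12.64 ± 0.19 (SD, n = 3), did not differ from it beyond the spread. At 994.6 mg/kg Hbb was lower by 1.54 ± 0.25 than in control on the log2 scale (limma SE), a 2.90-fold difference. Without replicate 1 the difference was -1.001 ± 0.13.

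**Figure D1:**
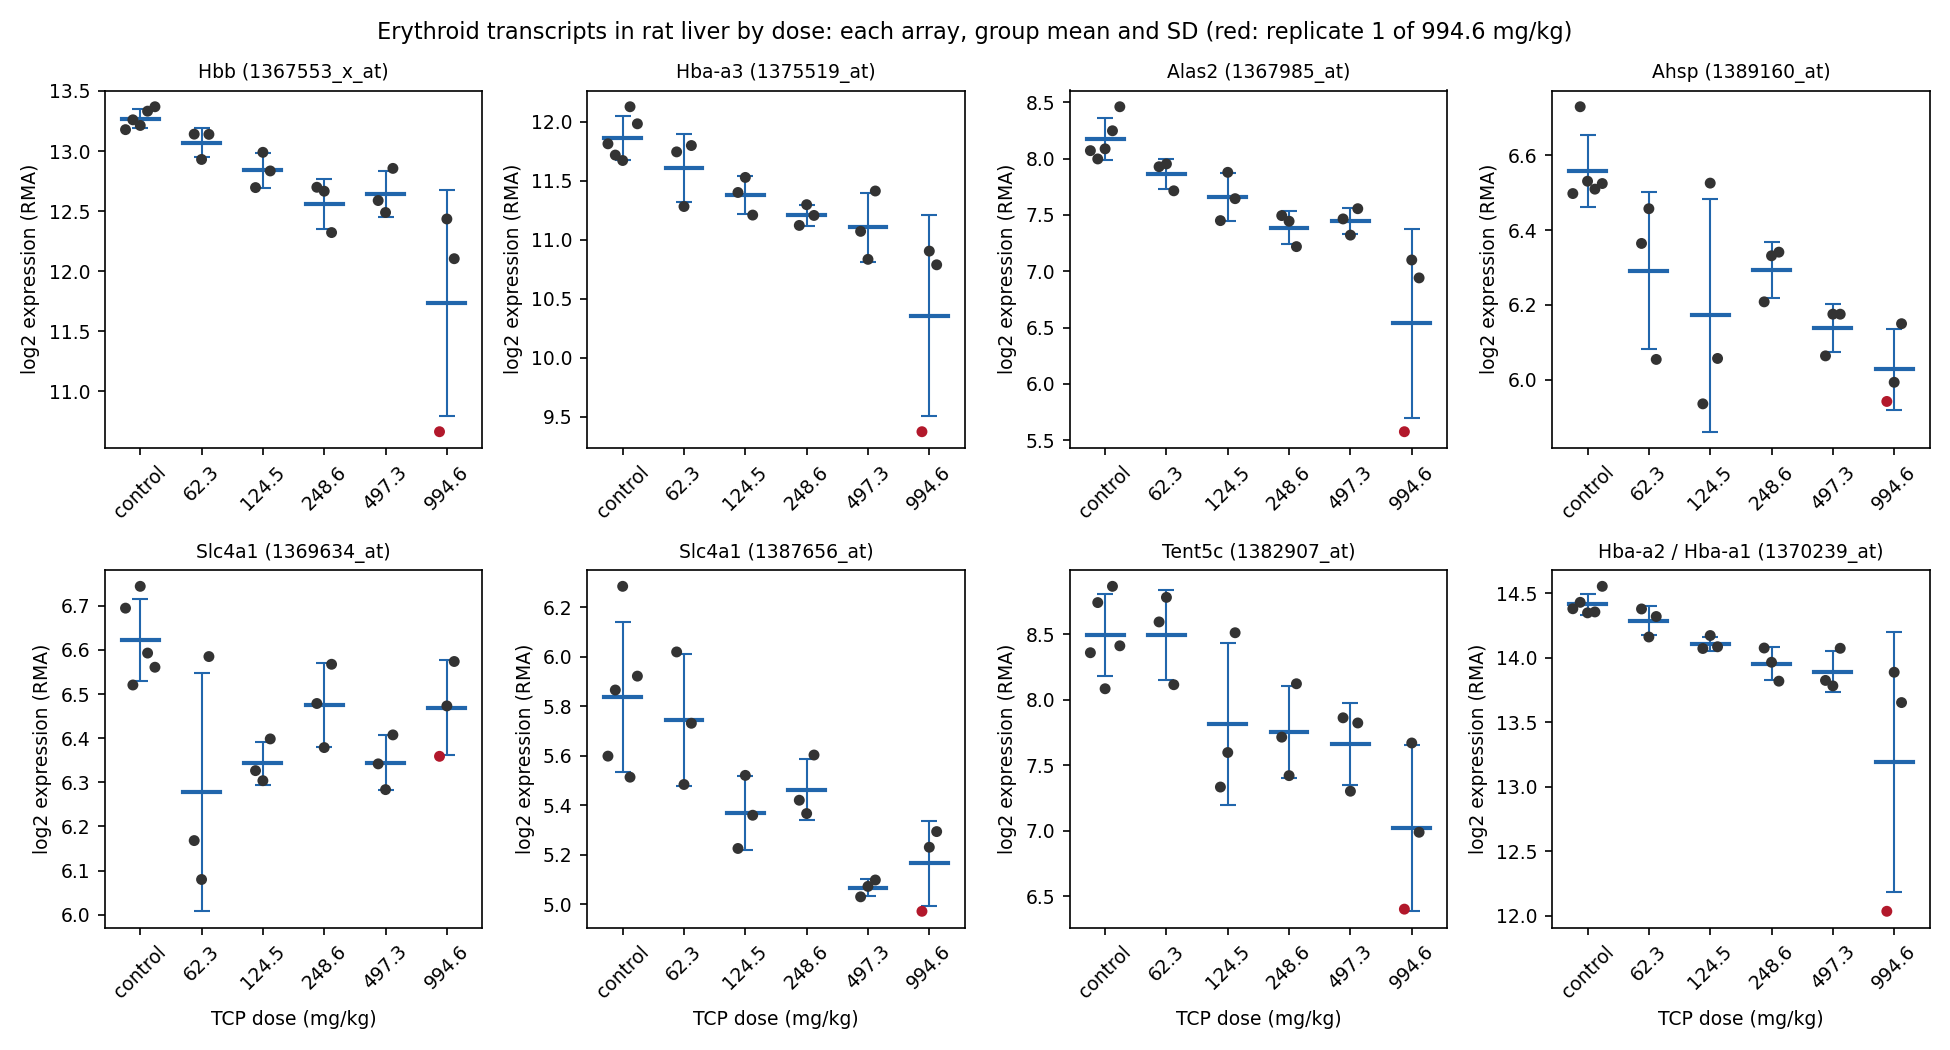
Log2 expression (vertical axes) of 8 of the 13 erythroid probe sets by TCP dose in mg/kg (horizontal axes); points are arrays, blue bars group means with SD (control n = 5, each dose n = 3), and the red point is replicate 1 of 994.6 mg/kg. Group means of Hba-a3 and of the Hba-a2 and Hba-a1 probe set step down at each dose. Those of Hbb and Alas2 step down to 248.6 mg/kg, are no lower at 497.3 mg/kg and are lowest at 994.6 mg/kg. Tent5c is level at 62.3 mg/kg and lower from 124.5 mg/kg, and the Slc4a1 probe set with the higher mean level shows no step after 62.3 mg/kg.

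The _a_at probe set of the β-globin genes Hbbl1 and Hbb-bs had the largest difference of the 13 at 994.6 mg/kg. It was at 12.58, 12.93, 12.64, 12.91 and 12.82 in control, 12.57, 12.20 and 12.24 at 62.3 mg/kg, 11.89, 12.50 and 12.02 at 124.5 mg/kg, 11.95, 12.02 and 11.73 at 248.6 mg/kg, 11.76, 11.56 and 12.08 at 497.3 mg/kg, and 9.32, 11.63 and 11.24 at 994.6 mg/kg. Again no treated array reached the lowest control. At 994.6 mg/kg it was lower by 2.05 ± 0.33 than in control on the log2 scale (4.13-fold), and the difference was -1.34 ± 0.17 without replicate 1 (2.53-fold). The _x_at probe set of these genes was lower by 1.82 ± 0.26, with a difference of -1.26 ± 0.14 without replicate 1. Its arrays lay between 11.38 and 11.86 at 497.3 mg/kg and between 12.30 and 12.47 in control, with no overlap.

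Among the α-globins, Hba-a3 was at 11.81, 11.72, 11.67, 12.13 and 11.98 in control, 11.75, 11.28 and 11.80 at 62.3 mg/kg, 11.40, 11.53 and 11.21 at 124.5 mg/kg, 11.12, 11.30 and 11.21 at 248.6 mg/kg, 11.07, 10.83 and 11.41 at 497.3 mg/kg, and 9.37, 10.90 and 10.79 at 994.6 mg/kg. The lowest dose overlapped control, and each higher dose lay wholly below it. Hba-a3 was lower by 1.51 ± 0.24 at 994.6 mg/kg than in control, and the difference was -1.02 ± 0.16 without replicate 1. The 3 probe sets that name Hba-a2 and Hba-a1, the main adult α-globin genes, differed from control by -1.43 to -1.22 at that dose and by -0.78 to -0.64 without replicate 1. The _at probe set among them averaged 13.89 ± 0.16 at 497.3 mg/kg (SD, n = 3) and 14.41 ± 0.08 in control (SD, n = 5). These probe sets are the brightest of the 13, near the upper end of the deposited values at 15.4. The probe set of Hbq1b and Hbq1, θ-globin-like genes, had the smallest difference of the globin probe sets at the highest dose, at 6.71, 6.82 and 6.97 at 994.6 mg/kg, against 7.25, 7.10, 7.17, 7.43 and 7.03 in control, a difference of -0.37 ± 0.11 (-0.30 ± 0.12 without replicate 1). Its 3 arrays of 497.3 mg/kg overlapped control.

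Most globin probe sets cannot be treated as separate measurements. Across the 21 pairs of the 7 globin probe sets other than that of Hbq1b and Hbq1, the deviations from the group means correlated over the 20 arrays with Pearson r between 0.903 and 0.997, and between 0.582 and 0.972 over the 19 arrays without replicate 1 of 994.6 mg/kg. With the Hbq1b and Hbq1 probe set included, the lowest r of the 28 pairs was 0.205 over 20 arrays and -0.11 over 19. They share the rats, blood content and similar target sequences, and the suffixes _x_at and _a_at mark probe sets whose probes can bind more than 1 transcript.

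Alas2, the first enzyme of heme synthesis in erythroid cells, followed the globins closely. Its arrays were at 8.07, 8.0, 8.09, 8.25 and 8.46 in control, 7.93, 7.95 and 7.71 at 62.3 mg/kg, 7.45, 7.88 and 7.64 at 124.5 mg/kg, 7.49, 7.44 and 7.22 at 248.6 mg/kg, 7.46, 7.32 and 7.56 at 497.3 mg/kg, and 5.58, 7.10 and 6.94 at 994.6 mg/kg. Every treated array lay below every control array, and all arrays of 994.6 mg/kg lay below all other arrays. At 994.6 mg/kg it was lower by 1.63 ± 0.23 than in control (3.10-fold), and the difference was -1.15 ± 0.13 without replicate 1 (2.22-fold). As with Hbb, the means of 248.6 and 497.3 mg/kg, 7.39 ± 0.15 and 7.45 ± 0.12 (SD, n = 3 each), did not differ beyond their spread.

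Ahsp, which binds free α-globin and keeps it stable, differed less. It was at 6.50, 6.73, 6.53, 6.51 and 6.52 in control, 6.36, 6.46 and 6.05 at 62.3 mg/kg, 5.94, 6.53 and 6.06 at 124.5 mg/kg, 6.21, 6.33 and 6.34 at 248.6 mg/kg, 6.06, 6.18 and 6.18 at 497.3 mg/kg, and 5.94, 5.99 and 6.15 at 994.6 mg/kg. Only replicate 2 of 124.5 mg/kg, the array with the GAPDH difference of 2.58, reached the control range. At 994.6 mg/kg Ahsp was lower by 0.53 ± 0.11 than in control. The difference was -0.49 ± 0.13 without replicate 1, and -0.33 ± 0.09 with the GAPDH difference as a covariate.

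The 2 probe sets of Slc4a1, the anion exchanger of the red cell membrane, disagreed. The probe set with the higher mean level was at 6.69, 6.52, 6.74, 6.59 and 6.56 in control, 6.17, 6.08 and 6.58 at 62.3 mg/kg, 6.33, 6.30 and 6.40 at 124.5 mg/kg, 6.48, 6.38 and 6.57 at 248.6 mg/kg, 6.34, 6.28 and 6.41 at 497.3 mg/kg, and 6.36, 6.47 and 6.57 at 994.6 mg/kg. It was lowest on average at 62.3 mg/kg and overlapped control at 994.6 mg/kg, where the difference was -0.15 ± 0.10 (-0.10 ± 0.11 without replicate 1). The probe set with the lower mean level was at 5.60, 5.87, 6.29, 5.51 and 5.92 in control, 6.02, 5.48 and 5.73 at 62.3 mg/kg, 5.23, 5.52 and 5.36 at 124.5 mg/kg, 5.42, 5.37 and 5.60 at 248.6 mg/kg, 5.03, 5.07 and 5.10 at 497.3 mg/kg, and 4.97, 5.23 and 5.29 at 994.6 mg/kg. This probe set was lower at both highest doses than in every control array, with differences from control of -0.77 ± 0.15 at 497.3 mg/kg and -0.67 ± 0.15 at 994.6 mg/kg (-0.58 ± 0.16 without replicate 1).

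Tent5c encodes a poly(A) polymerase that lengthens mRNA tails, known from plasma cells in human and mouse. It was at 8.36, 8.74, 8.08, 8.87 and 8.41 in control, 8.59, 8.78 and 8.12 at 62.3 mg/kg, 7.33, 7.60 and 8.51 at 124.5 mg/kg, 7.71, 7.42 and 8.12 at 248.6 mg/kg, 7.86, 7.30 and 7.82 at 497.3 mg/kg, and 6.40, 7.67 and 6.99 at 994.6 mg/kg. The arrays of 62.3 mg/kg lay within the control range, those of 124.5 and 248.6 mg/kg overlapped it, and those of 497.3 and 994.6 mg/kg lay below it. The difference from control was 0.004 ± 0.28 at 62.3 mg/kg, -0.83 ± 0.28 at 497.3 mg/kg and -1.47 ± 0.28 at 994.6 mg/kg, and -1.16 ± 0.29 at the highest dose without replicate 1.

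Array by array, 6 of the 13 member probe sets had all 3 arrays of 62.3 mg/kg below all 5 control arrays, where 1.3% of all probe sets did. The number was 9 of 13 at 124.5 mg/kg (1.48% of all probe sets), 9 of 13 at 248.6 mg/kg (3.05%), 12 of 13 at 497.3 mg/kg (3.79%) and 12 of 13 at 994.6 mg/kg (5.75%). The exceptions were the Hbq1b and Hbq1 probe set at 497.3 mg/kg and the Slc4a1 probe set with the higher mean level at 994.6 mg/kg. The 5 comparisons share the same control arrays, and the members were chosen on the last of them.

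**Figure D2:**
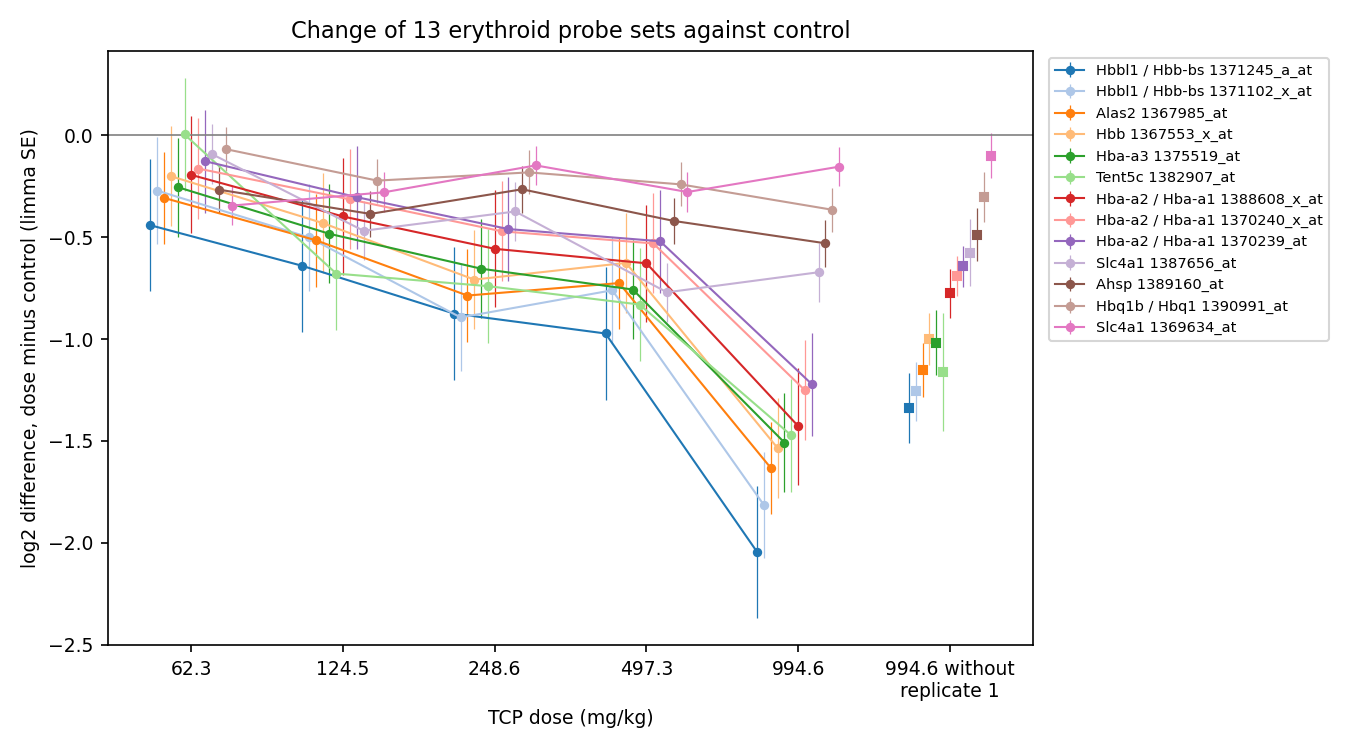
Log2 difference from control (vertical axis, dose minus control, bars limma SE) of the 13 erythroid probe sets at each TCP dose in mg/kg (horizontal axis; control n = 5, each dose n = 3), with squares for 994.6 mg/kg without replicate 1. At that dose the differences run from -2.05 to -0.15 with all arrays, and those of Hbb, Hba-a3 and Alas2 are -1.54, -1.51 and -1.63.

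Whether the members' levels followed dose was tested without control and without 994.6 mg/kg, on the 12 arrays of 62.3 to 497.3 mg/kg, as the slope of the log2 level per dose step. None of the 13 probe sets passed limma's test after Benjamini-Hochberg adjustment over all 31042 probe sets, where 0% were called lower and 0.00644% higher, and the lowest adjusted p among the members was 0.458. Slopes were below zero in 12 of 13 member probe sets, against 50% of all probe sets, with a median slope of -0.15. At an unadjusted limma p under 0.05, 10 of 13 were lower and 0 higher, where 2.87% of all probe sets were lower; 7 of the 13 are probe sets of globin genes whose levels moved together, so these are not separate observations. The slope of Hbb was -0.16 ± 0.044 per step (limma adjusted p = 0.664), that of Alas2 -0.15 ± 0.041 (adjusted p = 0.646) and that of Hba-a3 -0.17 ± 0.048 (adjusted p = 0.671). Among the globin probe sets, the _at probe set of Hba-a2 and Hba-a1 had the lowest limma adjusted p, 0.5, with a slope of -0.13 ± 0.032. Tent5c had the steepest slope, -0.26 ± 0.091 (limma adjusted p = 0.769), and its arrays were also the most spread. The Slc4a1 probe sets again differed, with -0.19 ± 0.045 for the one with the lower mean level (limma adjusted p = 0.458) and 0.03 ± 0.038 for the other (adjusted p = 0.992). Ahsp had a slope of -0.03 ± 0.045 (limma adjusted p = 0.992). With the GAPDH difference as a covariate the slopes of Hbb, Alas2 and Hba-a3 were -0.15, -0.14 and -0.16.

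**Figure D3:**
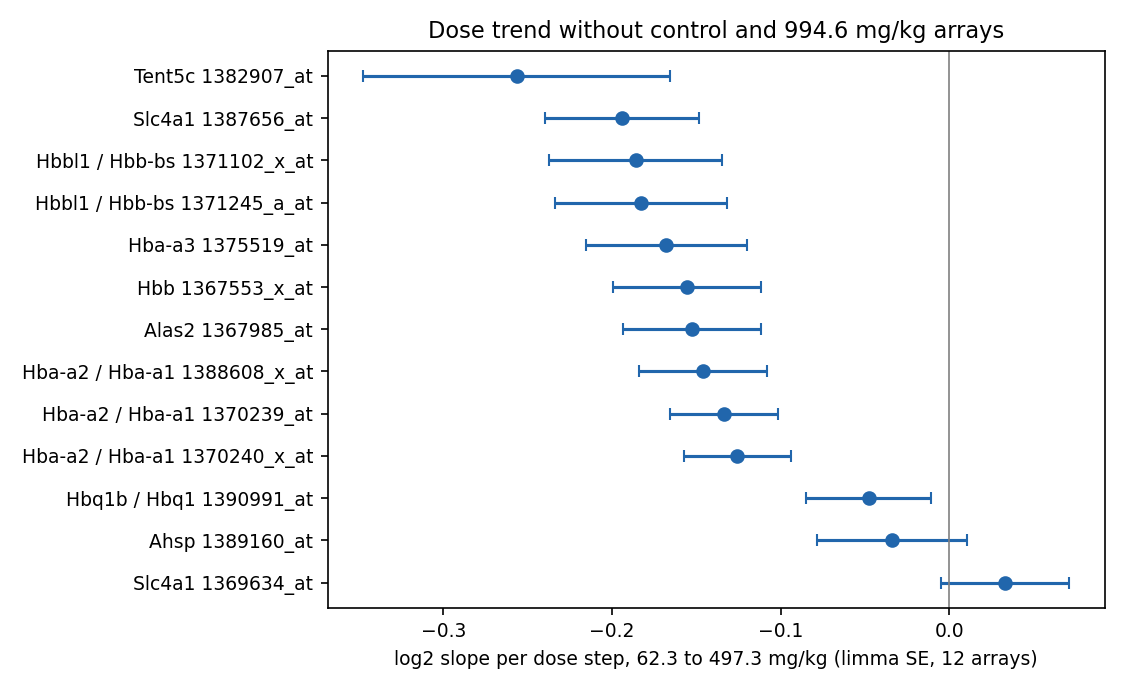
Slope of the log2 level per dose step over the 12 arrays of 62.3, 124.5, 248.6 and 497.3 mg/kg (horizontal axis, bars limma SE) for the 13 erythroid probe sets (vertical axis). Of these, 12 slopes lie below zero, with Tent5c at -0.26, and the Slc4a1 probe set with the higher mean level lies at 0.03.

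The ends of the same 12 arrays, which also enter the slope and so are not a separate observation, gave a like picture. All 3 arrays of 497.3 mg/kg lay below all 3 of 62.3 mg/kg in 9 of 13 member probe sets, where 4.37% of all probe sets did. No member was called, where 0.00322% of all probe sets were called lower by limma's adjusted p, and 10 of 13 were lower at an unadjusted p under 0.05, where 2.33% of all were. Hbb was -0.43 ± 0.13 (limma adjusted p = 0.905), Alas2 -0.42 ± 0.13 (adjusted p = 0.897), Hba-a3 -0.50 ± 0.16 (adjusted p = 0.923) and Tent5c -0.83 ± 0.28 (adjusted p = 0.958). The lowest limma adjusted p, 0.333, was that of the Slc4a1 probe set with the lower mean level, at -0.68 ± 0.13, whose 3 arrays of 497.3 mg/kg were the least spread of its groups (SD 0.03).

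Between rats of the same dose, Alas2 and Hba-a3 went with Hbb. Ahsp, Tent5c and the Slc4a1 probe set with the higher mean level did not show such a relation. The other Slc4a1 probe set was not tested here. Neither were the probe sets naming several globin genes, which are covered by the correlations among globin probe sets above. After each group's mean was subtracted, and without replicate 1 of 994.6 mg/kg, Alas2 correlated with Hbb over 19 arrays with Pearson r = 0.677 and Spearman rho = 0.698 (permutation p within groups 0.00394 and 0.00399, adjusted over 5 genes 0.0175 and 0.02). Hba-a3 did so with r = 0.629 and rho = 0.593 (permutation p 0.00698 and 0.0118, adjusted 0.0175 and 0.0296). Without the 2 arrays farthest from the median of Hbb, r was 0.629 for Alas2 and 0.636 for Hba-a3. Ahsp, Slc4a1 and Tent5c had r of 0.04, -0.03 and 0.11 over these 19 arrays (permutation p 0.889, 0.9 and 0.724, adjusted 0.9 for each). Ahsp and this Slc4a1 probe set averaged 6.28 and 6.44 over the 20 arrays, near the array medians of 6.31 to 6.41. Signal over background was not assessed, so a low r for them cannot be told from a lack of signal. Over all 20 arrays r was 0.942 for Alas2, 0.912 for Hba-a3 and 0.465 for Tent5c, and the last of these was -0.046 without the 2 farthest arrays, so it rests on them.

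**Figure D4:**
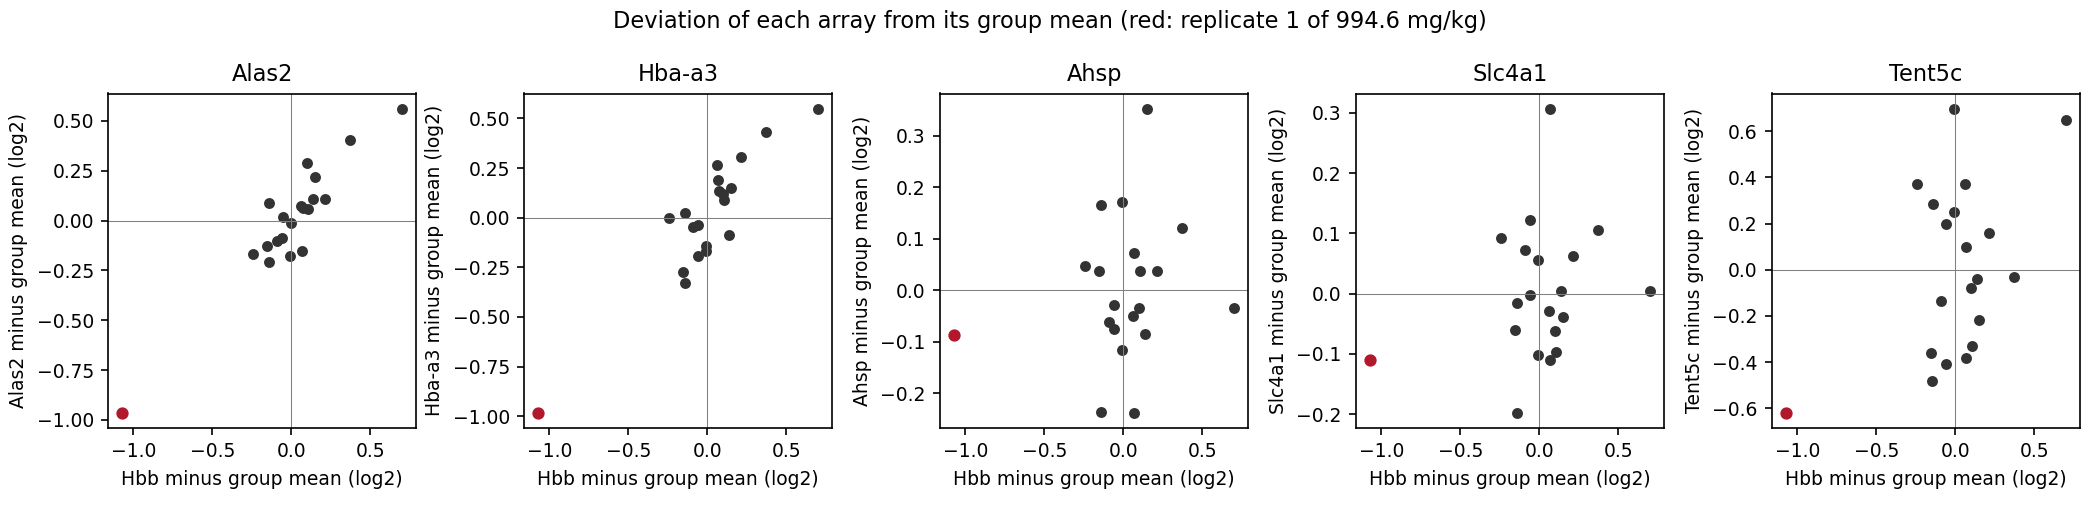
Deviation of each of 20 arrays from its group mean on the log2 scale, with Hbb on the horizontal axes and Alas2, Hba-a3, Ahsp, Slc4a1 (the probe set with the higher mean level) or Tent5c on the vertical axes; the red point is replicate 1 of 994.6 mg/kg. Alas2 and Hba-a3 rise with Hbb (r = 0.677 and 0.629 without the red point), while Ahsp, Slc4a1 and Tent5c scatter.

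Other genes of the erythroid program were looked up in 4 fixed lists with 66 genes, of which 48 were measured by a probe set of their own. At 994.6 mg/kg, 3 of the 48 fell and 0 rose against control by limma's adjusted p under 0.05, where 1.24% of all probe sets were called lower and 1.36% higher. All 3 are in the list of late erythroid and reticulocyte genes. Tfrc, the transferrin receptor that brings iron into erythroblasts and many other cells, was at 9.90, 9.50 and 9.88 at 994.6 mg/kg, against 10.55, 10.51, 10.27, 11.08 and 10.60 in control (-0.84 ± 0.20, limma adjusted p = 0.0292). Car1, a carbonic anhydrase of red cells, was at 5.45, 5.94 and 5.70, against 6.0, 6.29, 6.29, 6.13 and 6.57 in control (-0.56 ± 0.13, adjusted p = 0.0254). Alox15, a lipoxygenase known from maturing reticulocytes in rabbit, was at 6.85, 6.73 and 6.91, against 7.38, 7.42, 7.25, 7.44 and 7.58 in control (-0.58 ± 0.10, adjusted p = 0.00334). For each of these genes the treated and control arrays did not overlap. Without replicate 1 of 994.6 mg/kg, where 0.319% of all probe sets were called lower and 0.377% higher, only Alox15 was called among the 48 (adjusted p = 0.0173), with Tfrc at -0.91 (adjusted p = 0.088) and Car1 at -0.44 (adjusted p = 0.211). The call of Tfrc also ended without control replicate 1, 4 or 5 or replicate 2 of the dose (adjusted p 0.0547, 0.0641, 0.0582 and 0.122), and that of Car1 without control replicate 2 or 5 or replicate 3 of the dose (adjusted p 0.0524, 0.0602 and 0.0598) and with control and 994.6 mg/kg fitted alone (0.0747). With the GAPDH difference as a covariate neither was called (adjusted p 0.0818 for Tfrc and 0.106 for Car1).

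Over the 4 erythroid lists, 36 of 48 genes were below control at 994.6 mg/kg, with a median difference of -0.07, against -0.01 over all probe sets, and without replicate 1 these were 31 of 48 and -0.05. The late erythroid and reticulocyte list had 16 of its 19 measured genes below control, with a median of -0.17 (15 of 19 and -0.13 without replicate 1). The share of all probe sets below control was not counted at this dose. Among markers of other cells, 8 of 9 hepatocyte and 6 of 8 platelet and megakaryocyte genes also lay below control. So did 6 of 7 T cell and 5 of 6 B and plasma cell genes. For endothelial, neutrophil and Kupffer cell genes the counts were 3 of 5, 2 of 7 and 2 of 7. Without replicate 1, 7 of 9 hepatocyte and 6 of 8 platelet and megakaryocyte genes lay below control. The same held for 6 of 7 T cell, 5 of 6 B and plasma cell, 5 of 5 endothelial, 5 of 7 neutrophil and 2 of 7 Kupffer cell genes. Of the membrane and skeleton list, 11 of 15 lay below, with a median of -0.04 (9 of 15 and -0.005 without replicate 1), and none was called; the largest differences were those of Rhd, a Rh blood group protein (-0.48 ± 0.13, limma adjusted p = 0.0572), and of the skeleton protein Dmtn (-0.40 ± 0.12, adjusted p = 0.085). Without replicate 1 these were -0.38 and -0.20. The list of erythroid transcription factors and receptor had 7 of 11 genes below control, with a median of -0.04 (6 of 11 and -0.01 without replicate 1) and none called. Its largest differences were -0.16 ± 0.08 for Hemgn (limma adjusted p = 0.404) and -0.13 ± 0.35 for Nfe2 (adjusted p = 0.918). Gata1, the master regulator of red cell genes, was at 0.02 ± 0.13 (limma adjusted p = 0.973), Klf1, which activates adult β-globin, at -0.12 ± 0.12 (adjusted p = 0.703), and the erythropoietin receptor Epor at -0.04 ± 0.09 (adjusted p = 0.883). Without replicate 1 the differences were -0.08 for Hemgn, 0.10 for Nfe2, 0.13 for Gata1, -0.04 for Klf1 and -0.02 for Epor, so that of Nfe2 changed sign. Over the 20 arrays Gata1, Klf1, Nfe2 and Hemgn averaged 6.31, 6.21, 5.39 and 4.87, near or below the array medians of 6.31 to 6.41. Epor averaged 6.92. Signal over background was not assessed, so a small difference at such levels cannot be told from a lack of signal. The 4 measured globins that are no members, the embryonic or fetal-type Hbe1, Hbe2, Hbz and Hbg1, differed by -0.14 to 0.02 (-0.18 to 0.06 without replicate 1) and none was called. Their mean levels, 4.42 to 5.98, also lay below the array medians. At the 4 lower doses and in the trend over 62.3 to 497.3 mg/kg none of the 48 genes was called by limma's adjusted p. Over all probe sets 0%, 0.00322%, 0.00322% and 0.113% were called lower and 0%, 0%, 0.0258% and 0.2% higher at 62.3, 124.5, 248.6 and 497.3 mg/kg. At an unadjusted limma p under 0.05, 1, 2, 3 and 6 of the 48 were lower at these doses. Of all probe sets 1.22%, 2.02%, 2.87% and 4.75% were. In the trend 3 of the 48 were lower, where 2.87% of all probe sets were. At the 4 lower doses 0, 1, 1 and 1 of the 48 were higher, and the share of all probe sets higher was not counted.

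Of the heme synthesis enzymes other than Alas2, 1 passed the test, and it was higher. Alas1, the form of the first heme enzyme that hepatocytes use, rose at 994.6 mg/kg, at 10.85, 11.22 and 11.67, against 10.59, 10.22, 10.39, 9.99 and 10.28 in control (0.95 ± 0.18, limma adjusted p = 0.00843, and 1.15 with adjusted p = 0.00539 without replicate 1). It was not called with the GAPDH difference as a covariate (0.82, adjusted p = 0.0548). Alas1 was the only called gene of the 7 measured in the heme synthesis list, where 1.24% of all probe sets were called lower and 1.36% higher. The next largest differences were -0.34 ± 0.12 for Ppox and 0.29 ± 0.15 for Cpox (-0.38 and 0.14 without replicate 1). The list's median was -0.08 (-0.05 without replicate 1).

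Genes that handle hemoglobin and iron gave 1 call at 994.6 mg/kg, where 1.24% of all probe sets were called lower and 1.36% higher. Of the 8 measured genes of hemoglobin and heme clearance none was called, and the median was 0.02 (0.04 without replicate 1). Hmox1, which breaks down heme and answers oxidative stress, was at 12.46, 9.70 and 9.42 at 994.6 mg/kg, against 8.83, 8.59, 9.28, 9.04 and 9.01 in control. The size of its difference, 1.58 ± 0.50 (limma adjusted p = 0.105), rested on replicate 1. Without that array the difference was 0.61, and the remaining arrays of the dose still lay above every control array. The hemoglobin scavenger Hp differed by 0.17 ± 0.06 (limma adjusted p = 0.155), and the iron exporter Slc40a1 by -0.20 ± 0.12 (adjusted p = 0.484), against 0.13 and -0.25 without replicate 1. Of 9 measured genes of iron and erythropoietin signals, with a median of 0.11 (0.12 without replicate 1), Id1, a target of the BMP pathway, rose by 0.49 ± 0.13 (limma adjusted p = 0.044), and it was not called without any 1 of the 3 arrays of that dose (adjusted p 0.0854 to 0.131), nor without control replicate 2, 4 or 5, nor in 5 other fits that left out 1 array of 124.5, 248.6 or 497.3 mg/kg. It was also not called with the GAPDH difference as a covariate (0.43, adjusted p = 0.142) or after quantile normalization (0.45, adjusted p = 0.0798). Epo, the hormone that drives red cell formation, was at -0.06 ± 0.12 (adjusted p = 0.874; -0.02 without replicate 1), on a level near the lower end of the deposited values.

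**Figure D5:**
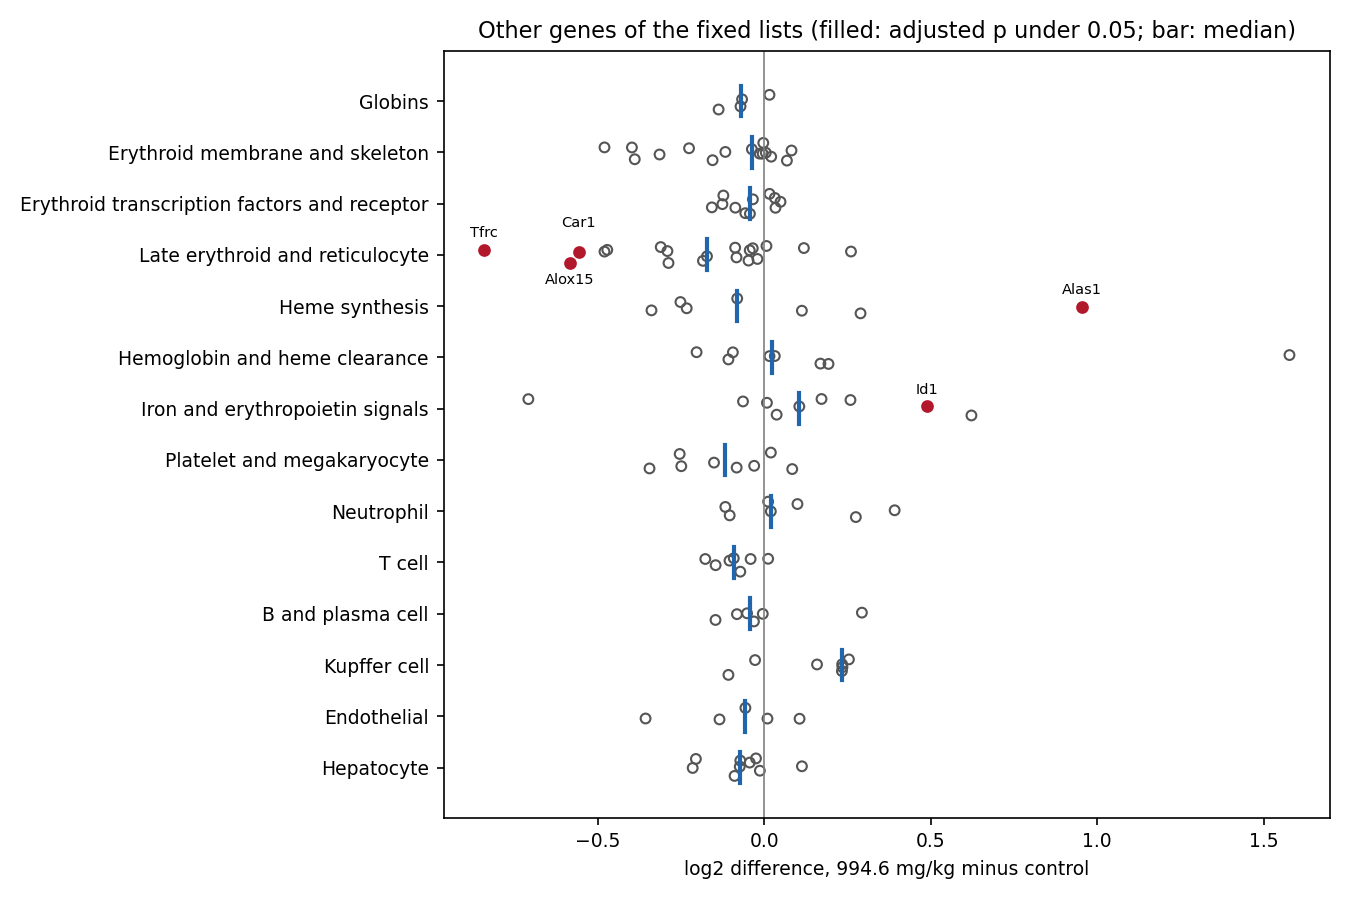
Log2 difference of 994.6 mg/kg minus control (horizontal axis) for each measured gene of 14 fixed lists that is no member (vertical axis, 1 row per list, heights within a row are arbitrary); filled points passed limma's adjusted p under 0.05 and blue bars are list medians. Tfrc, Car1 and Alox15 stand out on the lower side of the late erythroid list and Alas1 and Id1 on the higher side of theirs.

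Markers of the other cells that a piece of liver holds were set beside the members, as the mean log2 level of each list relative to control. In the 3 arrays of 994.6 mg/kg the mean of Hbb, Hba-a3 and Alas2 differed from control by -2.56 to -0.96. Markers of platelets and megakaryocytes, which also come with blood, ran from -0.24 to 0.04 (8 genes, -0.04 to 0.05 in control), those of T cells from -0.14 to -0.04 (7 genes, -0.06 to 0.05 in control), those of neutrophils from -0.22 to 0.47 (7 genes, -0.16 to 0.21 in control) and those of B and plasma cells, for which Tent5c is also known, from -0.07 to 0.12 (6 genes, -0.08 to 0.12 in control). Kupffer cell markers ran from 0.04 to 0.26 (7 genes, -0.42 to 0.19 in control), endothelial markers from -0.34 to 0.06 (5 genes, -0.08 to 0.11 in control) and hepatocyte markers from -0.12 to -0.03 (9 genes, -0.02 to 0.02 in control). None of these 7 lists had a called gene at this dose, where 1.24% of all probe sets were called lower and 1.36% higher. With shares that low, lists this short would hold few calls in any case. Their genes with the largest differences were Itga2b (-0.35) and Clec1b (-0.25), Cd8a (-0.18) and Cd3g (-0.15), S100a9 (0.39) and S100a8 (0.28), Jchain (0.29) and Ms4a1 (-0.15), C1qb (0.25) and C1qc (0.23), Stab2 (-0.36) and Vwf (-0.13), and Apoa1 (-0.21) and Cps1 (-0.20). Without replicate 1 they were -0.18 and -0.26, -0.08 and -0.19, -0.30 and -0.41, 0.19 and -0.12, 0.15 and 0.14, -0.40 and -0.15, and -0.14 and -0.17 in the same order, so S100a9 and S100a8 changed sign. Of the 3 arrays of this dose, replicate 1, which had the lowest member mean, had the lowest mean of the platelet and megakaryocyte (-0.24), T cell (-0.14) and hepatocyte (-0.12) markers and the highest of the neutrophil (0.47), Kupffer cell (0.26), B and plasma cell (0.12) and endothelial (0.06) markers. The part of blood content in the members' differences was not tested.

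The genes whose levels most resembled the mean of Hbb, Hba-a3 and Alas2 over the 20 arrays were Slc13a4, Pctp, Tgfbi, Rbm38, Cldn1, Abcb4, Pc and Nt5e, with Pearson r between 0.886 and 0.943 among 7177 genes considered. None of the 8 is on the fixed lists. Slc13a4, a sulfate transporter, differed by -1.68 ± 0.25 at 994.6 mg/kg, and Pctp, a phosphatidylcholine transfer protein, by -1.39 ± 0.18, both near the size of Hbb (-1.16 ± 0.15 and -1.03 ± 0.12 without replicate 1). Without replicate 1 the 8 most alike had r between 0.804 and 0.861 and shared 3 genes with the first 8, namely Nt5e, Pctp and Slc13a4; the taurine transporter Slc6a6 then led. After group means were subtracted, the 8 most alike were Creb3l3, Adamts7, Crat, Paqr7, Aopep, Scly, Slc13a4 and Rab3a, with r between 0.828 and 0.897, and 0 of these remained among the first 8 without replicate 1, where r was between 0.712 and 0.832. Which genes ranked first within groups thus depended on that array. All these arrays share dose, and no p-value is given.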

How the data were processed

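Liver RNA of 20 rats was measured on 1-colour Affymetrix arrays. The values the authors deposited are on the log2 scale and came from RMA, as the submitters' processing notes say; its version and the arrays normalized together are not given in the sources used here. Values run from 2.74 to 15.4, with array medians of 6.31 to 6.41, so a difference is relative to the bulk of all probe sets. Signal over background was not assessed. Of 31099 probe sets, 57 control ones were left out. GEO's platform annotation gave 1 gene symbol for 20826 of the remaining 31042, several for 436 and none for 9780. Symbols were updated through gene identifiers (20758) or accessions (2), and 66 were kept.

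All 31042 probe sets were fitted with limma 3.58.1 in R 4.3.3 (lmFit, eBayes, default settings), without a filter on low values. One fit had a mean per dose group over 20 arrays, with 14 residual degrees of freedom. The others used the 12 arrays of 62.3 to 497.3 mg/kg, with a slope per dose step or group means. Errors of differences are limma's SE, and calls are Benjamini-Hochberg adjusted p under 0.05 over all probe sets. A listed gene was represented by its single-symbol probe set with the highest mean. The script was checked on simulated data. Within-group relations used 100000 permutations within dose groups. The members, lists and tests were chosen with earlier results of these data known.

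Named were all members, the called genes of each of 14 lists (at most 6) or the 2 with the largest difference at 994.6 mg/kg where none was called, Gata1, Klf1, Epor, Tfrc, Alas1, Hp, Hmox1 and Epo, and the 8 genes most like the mean of Hbb, Hba-a3 and Alas2, among those with an SD of at least 0.15 and no placeholder name. Alternatives covered probe set choice, normalization, a filter on low values, eBayes options, array weights, a replicate block, the arrays fitted, each array left out, the dose scale, a fold threshold and the GAPDH 3′ minus 5′ difference as a covariate. Likeness, relations within groups and the lists without replicate 1 of 994.6 mg/kg were added after seeing the data.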

Additional observations from a re-analysis of the deposited data

Results flagged for a closer look

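In the control group, Ahsp of replicate 2 stood apart, at 6.73 on the log2 scale, while the other 4 control arrays lay between 6.50 and 6.53. Its gap to the nearest of them was 0.858 of the group's whole range, above Dixon's critical value for 5 samples. The control groups of 13 probe sets were looked at in this way, and chance flags about 1 in 20 groups. The groups of 3 arrays were not tested.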

How the results depend on the processing

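No member was called in the trend or between 497.3 and 62.3 mg/kg under any setting run, and the slopes of Hbb, Alas2, Hba-a3, Tent5c and Ahsp stayed below zero. Without 1 array, slopes ran from -0.20 to -0.14 for Hbb, -0.18 to -0.13 for Alas2, -0.21 to -0.14 for Hba-a3, -0.30 to -0.20 for Tent5c, -0.06 to -0.01 for Ahsp and 0.003 to 0.07 for Slc4a1 (the probe set with the higher mean level). Between 497.3 and 62.3 mg/kg they ran from -0.53 to -0.35, -0.49 to -0.35, -0.67 to -0.37, -1.03 to -0.65, -0.27 to -0.07 and -0.032 to 0.22 in the same order; Slc4a1 turned to -0.032 without replicate 2 of 62.3 mg/kg. Against control, 994.6 mg/kg ran from -1.89 to -1.001 for Hbb, -1.91 to -1.15 for Alas2, -1.78 to -1.02 for Hba-a3, -1.80 to -1.16 for Tent5c, -0.59 to -0.49 for Ahsp and -0.21 to -0.10 for Slc4a1, with the smallest differences without replicate 1. With array weights, which give deviating arrays less weight, they were -0.95, -1.17, -1.04 and -0.93 for Hbb, Alas2, Hba-a3 and Tent5c, and Ahsp was -0.33 with the GAPDH covariate. The 3 other erythroid genes called at 994.6 mg/kg became 5 with 1 probe set per gene, 5 after quantile normalization, 10 with array weights, 1 at a fold of at least 1.5, and 1 to 4 without 1 array, with 1 without control replicate 5 or without replicate 1 of the dose. Beyond the construction of these settings, the cause was not tested.

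With the replicate number as a block, Hbb was -1.48 at 994.6 mg/kg against control and its slope -0.16, no member was called in the trend, and 2 other erythroid genes were called at 994.6 mg/kg. The block fit against control left out control replicates 4 and 5, whose numbers the dosed groups lack. Tfrc, Alas1 and Id1 were not called in that fit (limma adjusted p 0.168, 0.071 and 0.21). The block and the missing control arrays cannot be told apart there. Deviations of same-numbered arrays correlated between -0.32 and 0.43, with a mean of 0.05. Those of different-numbered arrays correlated between -0.38 and 0.30, with a mean of -0.02. These ranges cannot decide whether same-numbered arrays share more than a number.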
